A study of Rattus norvegicus with 8 samples.

Results

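The 251 long intergenic non-coding RNAs (lincRNAs) described here were all the gene symbols that the authors' somatic expression table assigned to the Ensembl biotype lincRNA. They were matched by symbol to a count table of 28909 symbols, of which 14309 had more than 20 reads in at least 2 libraries and were tested. Because the biotypes were given only for tested genes, each of the 251 had passed that filter, and lincRNAs with fewer reads are not described. The question of the series was how the transcriptome of the somatic and the process compartment of neurons responds to chronic network activity.

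Primary hippocampal neurons of Sprague-Dawley rats were grown on culture inserts, through which axons and dendrites, but not cell bodies, reach the lower side, and RNA was taken from the upper (somata) and the lower (processes) compartment. Cultures received the GABA-A receptor antagonist picrotoxin (PTX) for 48 h, from day in vitro 18 to 20, or the ethanol vehicle as controls. This gave 4 groups of 2 libraries, namely control somata, PTX somata, control processes and PTX processes, all made from ribosome-depleted total RNA. Nothing in the labels says whether the 2 libraries of a group came from separate cultures, so the p-values measure only the spread between these libraries, which may be technical. The 5 neuronal markers were present in every library, with sums of 1380 to 1786 CPM (reads per 1e6 reads) in somata and 3709 to 5212 in processes. Map2 set most of the process sums, with means of 936 CPM in control somata and 4609 CPM in control processes. Between control compartments, Map2 and Rbfox3 were higher in processes (log2 fold change 2.30 and 0.52). Syt1, Tubb3 and Snap25 were lower there (-0.98, -0.57 and -0.37). Astrocyte markers were present too. The 7 of them summed to between 2623 and 3937 CPM in somata and between 10540 and 13950 in processes. Gfap set most of the process sums, with means of 1684.5 CPM in control somata and 10247 CPM in control processes. S100b, Sox9 and Aldh1l1 were also higher in processes (2.16, 0.61 and 0.43), Aqp4 was nearly level (0.08), and Gja1 and Slc1a3 were lower (-0.38 and -0.56). The 9 oligodendrocyte lineage markers summed to 272 to 457 CPM in somata and 471 to 648 CPM in processes. The 5 microglial markers summed to at most 1.91 CPM, and the vascular marker Cldn5 had 0 reads in every library.

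LincRNAs are transcribed from stretches between protein-coding genes and, unlike messenger RNAs, are not known to be translated. As a class they are made at low levels and in a narrow range of cell types, and many stay in the nucleus, where some act on chromatin or on neighbouring genes, while others reach the cytoplasm. In neurons a few of them have been linked to activity-dependent transcription and to the control of dendrites and synapses. For most lincRNAs of the rat no role has been described.

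The identity of these genes was accordingly thin. Of the 251 symbols, 209 were names of genomic clones or contigs, 39 were provisional LOC names and 3 were ordinary symbols, Kantr, Rfwd3 and Tug1. A RefSeq gene table of assembly GRCr8 matched 9 of them, and 242 had no match by symbol or identifier. It listed 5 of the 9 as long non-coding RNAs, namely Kantr on chromosome X, LOC100909912 on chromosome 3, LOC102548225 on chromosome 18, LOC102549726 on chromosome 20 and Tug1 on chromosome 14. The other 4, Rfwd3, LOC103694491, LOC688442 and LOC688801, were protein coding there, so the label lincRNA did not hold for them in that annotation. Symbols that carry the same contig number were taken as lying on the same piece of sequence, and 21 members fell on 9 contigs with more than 1 member. Strand settings of the counting were not given in the sources used here, so reads of an overlapping gene on the opposite strand could not be told apart from those of a lincRNA.

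Reads on these genes were few. Total counts ranged from 12290890 to 18455662 per library, but outside the mitochondrial genome somatic libraries held 9517551 to 11227617 reads and process libraries 4702079 to 5491266. The median lincRNA had 54.25 reads in an average somatic library and 17 in an average process library, against 289.25 and 102.5 for all tested genes. The median of the mean level was 2.03 CPM for the lincRNAs, with a range from 0.452 to 1854, and 11.8 CPM for all tested genes. In processes, 111 lincRNAs had more than 20 reads in none of the 4 libraries, while in somata this held for 2. Standard errors were larger than for other genes. For the PTX effect the median standard error on the log2 scale was 0.29 for lincRNAs and 0.16 for all tested genes in somata, and 0.39 against 0.19 in processes.

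LincRNAs took a larger share of the reads in somata than in processes, and 3 of them accounted for most of that difference. Of the reads outside the mitochondrial genome, lincRNAs held 1.66% ± 0.206 in control somata, 1.62% ± 0.0969 in PTX somata, 0.437% ± 0.00841 in control processes and 0.427% ± 0.0108 in PTX processes (SD, n = 2 each). The compartments did not overlap, whereas the ranges of PTX and control libraries did in both. The 95% Wilson interval of a single library's share was at most 0.00844 percentage points to either side, and covers counting error only. AC134224.1, AC134224.2 and AC134224.3, which share a contig and have no RefSeq match, drew 83.3% of all lincRNA reads in control somata and 52.1% in control processes. The remaining 248 lincRNAs held 0.274% ± 0.0094 in control somata, 0.278% ± 0.00431 in PTX somata, 0.21% ± 0.00643 in control processes and 0.219% ± 0.000283 in PTX processes. The compartments hold different parts of the cells, and a share is relative to the other RNAs of a library. The number of cells that make an RNA, its amount per cell and its place within cells cannot be told apart in a bulk share.

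**Figure D1:**
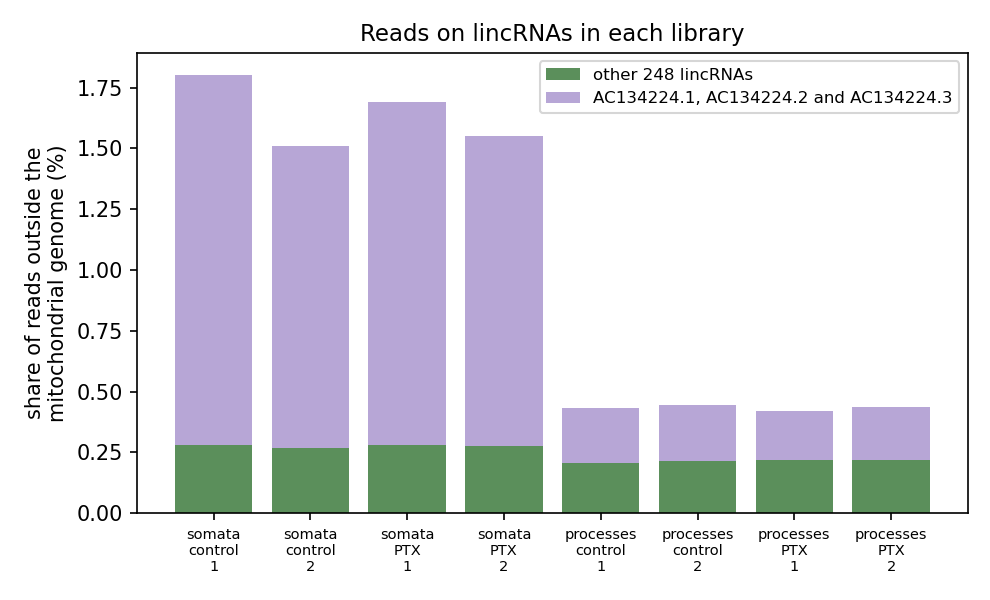
Share of the reads outside the mitochondrial genome (%, vertical axis) that fell on lincRNAs in each of the 8 libraries, stacked as the 3 genes of contig AC134224 and the other 248 lincRNAs. The somatic bars stand well above the process bars, and most of the gap lies in the 3 genes.

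The first question was which lincRNAs responded to PTX in somata. In somata, 5 of 251 lincRNAs passed the test (1.99%), 4 of them higher and 1 lower after PTX, by edgeR's quasi-likelihood test with an adjusted p under 0.05 over all genes. Among all tested genes 3.59% were called, 2.09% as raised and 1.5% as lowered. The median log2 fold change was -0.07 for the lincRNAs and -0.01 for all tested genes. With no adjustment for multiple testing, 29 lincRNAs (11.6%) had a p under 0.05, against 15.6% of all tested genes. All 5 called lincRNAs had a mean of over 5 CPM. They were 8.47% of the 59 lincRNAs at that level, where 4.22% of all tested genes were called, and none of the 192 lincRNAs of lower mean level passed. That mean included the PTX libraries. AABR07052897.3 lay under 5 CPM in every control library and reached this class through its PTX reads, so the class depends in part on the response.

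In processes, 4 of 251 lincRNAs passed (1.59%), 3 higher and 1 lower after PTX, against 3.74% of all tested genes, of which 1.64% were raised and 2.1% lowered. The median log2 fold change was -0.03 for the lincRNAs and -0.01 for all tested genes, and 19 lincRNAs (7.57%) had an unadjusted p under 0.05, against 16.6% of all tested genes. Again the called lincRNAs all lay over 5 CPM, where they were 6.78% of 59 and the background was 4.83%. AABR07052897.3, in this class through its PTX reads, was counted here too. AABR07052897.3, AABR07007055.1 and AC127084.5 were called in both compartments, each in the same direction. The share of all tested genes called in both was not computed.

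AABR07052897.3 had the largest change of any lincRNA in either compartment. Its level was 3.66 and 3.09 CPM in the control somatic libraries and 38.3 and 30.3 CPM after PTX. In processes it was 4.91 and 2.70 CPM in controls and 68.6 and 42.4 CPM after PTX. In each compartment both PTX libraries stood above both controls by several fold. The log2 fold change was 3.35 in somata (standard error 0.26, adjusted p = 0.000176) and 3.85 in processes (standard error 0.30, adjusted p = 0.000384), and over all alternatives these ranged from 3.16 to 3.50 and from 3.47 to 4.35, always past the threshold.

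A second lincRNA of the same contig, AABR07052897.2, did not show this rise. It had 98 and 97 reads in control somata and 113 and 103 after PTX, where AABR07052897.3 went from 86 and 79 reads to 1066 and 715. Its log2 fold change in somata was 0.08 (standard error 0.34, adjusted p = 0.956). In processes it had 4 and 17 reads in controls and 27 and 14 after PTX, so that the groups overlapped. RefSeq holds neither symbol, so whether they are separate transcripts cannot be said.

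AABR07007055.1 was raised to a like degree in both compartments. It measured 5.48 and 5.01 CPM in control somata and 11.6 and 10.7 CPM in PTX somata, and in processes 7.25 and 7.16 CPM against 15.4 and 15.7 CPM. The groups were well apart in both. The log2 fold change was 1.09 in somata (standard error 0.14, adjusted p = 0.00232) and 1.11 in processes (standard error 0.16, adjusted p = 0.00471), and it passed under all alternatives.

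AC127084.5 was the only called lincRNA that fell, and it did so in both compartments. It measured 14.5 and 13.0 CPM in control somata against 9.35 and 8.55 CPM after PTX, which is -0.62 on the log2 scale (standard error 0.15, adjusted p = 0.0479). In processes it went from 13.3 and 11.5 CPM to 7.58 and 5.93 CPM, or -0.88 on that scale (standard error 0.18, adjusted p = 0.0271). No PTX library reached a control library in either compartment. Neither call was firm. In somata DESeq2 gave an adjusted p of 0.112, and leaving out any of the 4 somatic libraries gave between 0.154 and 0.267. Dropping control replicate 1 or 2 of the processes gave 0.0508 and 0.0515. In processes it was lost without control replicate 1 (0.178), PTX replicate 1 (0.0557) and PTX replicate 2 (0.156).

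The other 3 called lincRNAs passed in 1 compartment. AABR07059159.1 rose in somata from 7.27 and 7.05 CPM to 17.3 and 13.5 CPM, a log2 change of 1.11 (standard error 0.20, adjusted p = 0.0118). In processes it measured 5.35 and 4.81 CPM in controls and 8.04 and 4.83 CPM after PTX, and the groups overlapped. AABR07027407.1 was alike in its values, with 8.67 and 8.42 CPM in control somata and 16.0 and 13.3 CPM after PTX, a log2 change of 0.78 (standard error 0.17, adjusted p = 0.0321). Its process libraries held 4.91 and 5.28 CPM in controls and 7.46 and 4.93 CPM after PTX, which again overlapped. The somatic call of AABR07059159.1 was lost without control replicate 1, control replicate 2 or PTX replicate 1 (adjusted p 0.0713, 0.116 and 0.11). That of AABR07027407.1 was lost without any 1 of the 4 somatic libraries, in which case its adjusted p lay between 0.0598 and 0.269.

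AABR07021547.1 showed the reverse pattern. It went from 17.6 and 18.8 CPM to 27.8 and 27.4 CPM in processes, a log2 change of 0.60 (standard error 0.13, adjusted p = 0.0321), while its somatic libraries overlapped at 16.6 and 14.8 CPM in controls and 15.9 and 17.5 CPM after PTX. This call was lost without any 1 of the 4 process libraries, with an adjusted p between 0.0754 and 0.188. It was also lost with library sizes alone (0.0541) and with only the 4 process libraries in the fit (0.0705).

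**Figure D2:**
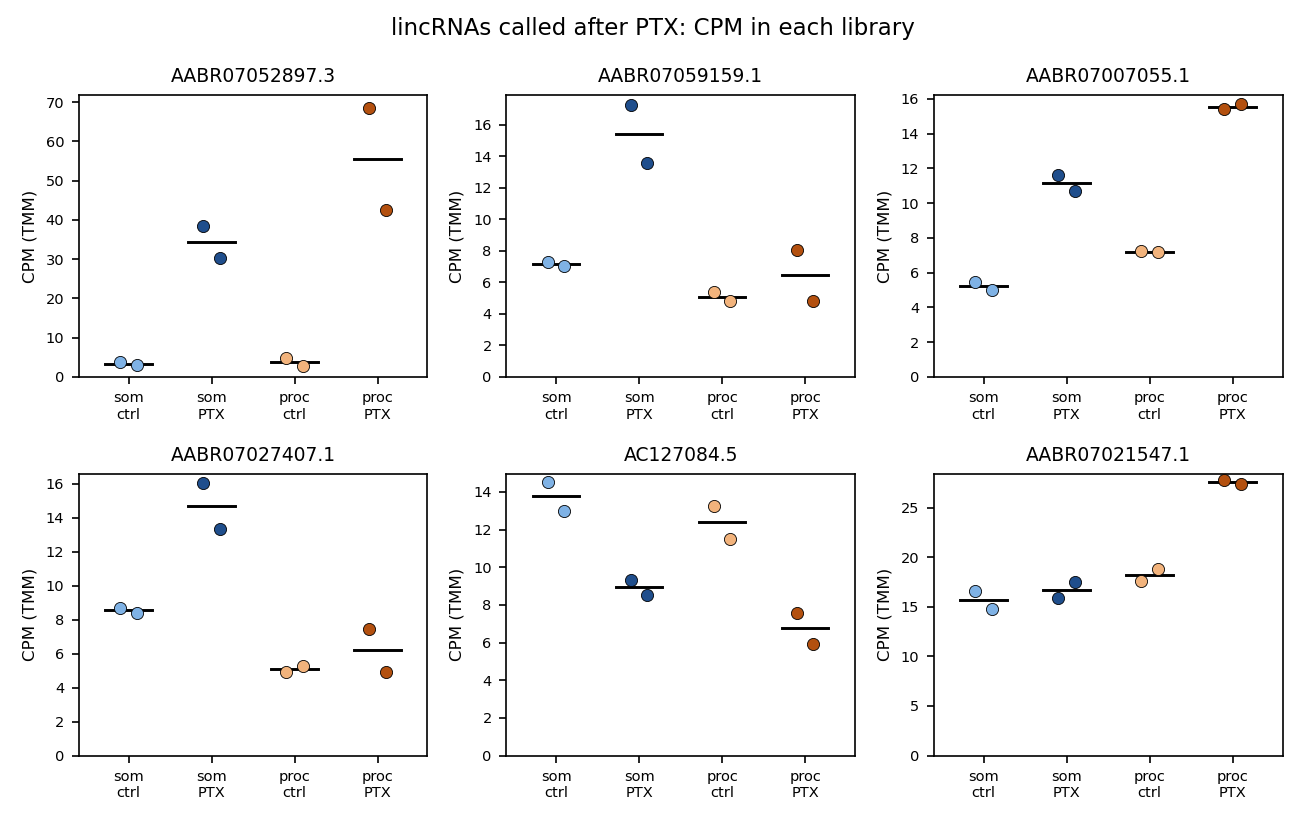
Level of the 6 lincRNAs called after PTX in at least 1 compartment, in CPM after TMM scaling (vertical axes start at 0 and differ in range), in each library of the 4 groups (som, somata; proc, processes; ctrl, control). Points are libraries and bars are the means of 2; AABR07052897.3 stands at most at 4.91 CPM in controls and at least at 30.3 CPM after PTX.

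Whether the response to PTX differed between the compartments was tested by the interaction of treatment and compartment. No lincRNA passed (0%, with 0% of all tested genes), the smallest adjusted p being 0.999993. An unadjusted p under 0.05 was seen for 6 lincRNAs (2.39%, against 4% of all tested genes), and edgeR's likelihood ratio test, DESeq2 and the fit with a replicate block called 0 lincRNAs as well, where the likelihood ratio test called 0.028% and the block 0.105% of all tested genes. The lowest unadjusted p-values belonged to AABR07021547.1, AABR07003304.1 and AABR07059159.1, whose interaction terms were 0.52 (standard error 0.18), 2.10 (0.82) and -0.78 (0.33) on the log2 scale. A difference in response between compartments was therefore not detectable for any lincRNA at this depth, also for the 3 that passed in a single compartment.

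Over the 251 lincRNAs, PTX effects in the somatic and in the process compartment correlated with a Spearman coefficient of 0.328 (Pearson 0.46), against 0.507 over all tested genes. Over the 59 lincRNAs with a mean of at least 5 CPM it was 0.621, close to the 0.583 of the 10208 genes at that level. That mean includes the PTX libraries, and AABR07052897.3 was in this class through its PTX reads. The points are genes, which are not independent replicates, and the 2 comparisons share no library, though the replicate numbers may mark a shared preparation.

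**Figure D3:**
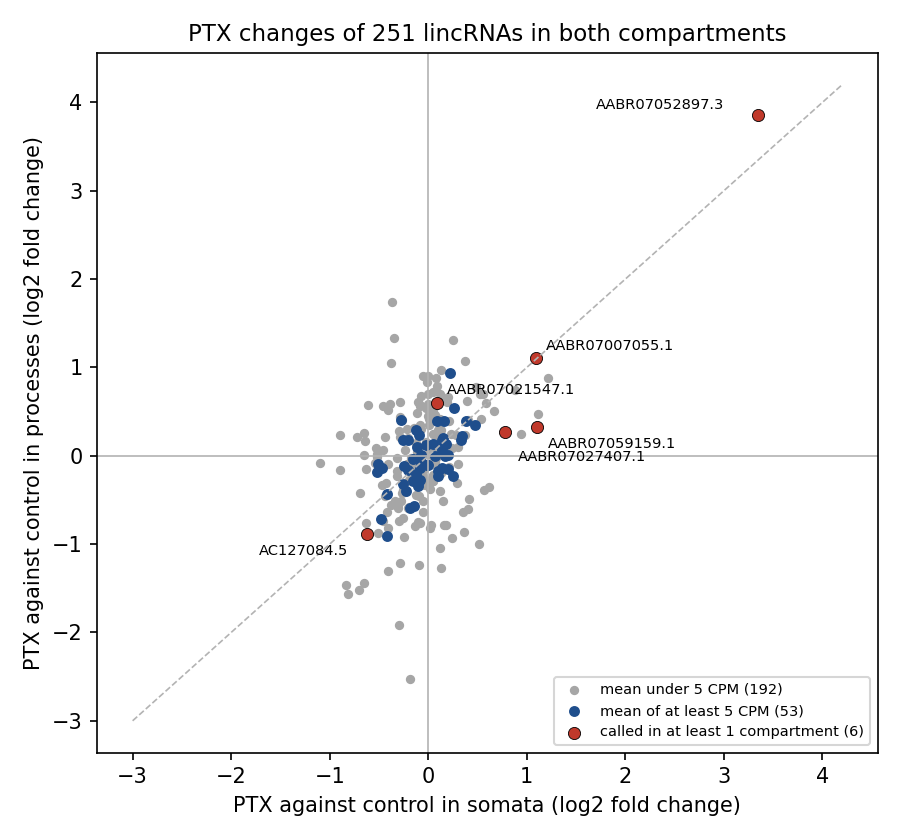
PTX against control log2 fold change of the 251 lincRNAs in somata (horizontal) and in processes (vertical), with the dashed line marking equal change. Genes below 5 CPM (grey) scatter widely without being called, those of at least 5 CPM (blue) lie near the centre, and the 6 called genes (red) are named.

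The same replicate numbers occur in all groups, and libraries with the same number deviated together, so the fit with the replicate number as a block was also considered. It called 18 lincRNAs in somata (7.17%, 7 raised and 11 lowered, against 14% of all tested genes, 7.21% raised and 6.79% lowered) and 11 in processes (4.38%, 5 raised and 6 lowered, against 11.2%, 5.1% raised and 6.09% lowered). As without the block, these shares lay below the background. Together 25 lincRNAs were called in at least 1 compartment and 4 in both, all in the same direction. For these overlaps no share over all tested genes was computed, so they do not set lincRNAs apart from other genes. The fourth lincRNA called in both, besides the 3 named above, was AABR07024542.1, with a blocked log2 fold change of -0.49 in somata and -0.72 in processes. It is named because of this count, after its values were seen.

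Among the 10 lincRNAs with the highest mean level, the block added a somatic call for 2. AABR07005779.5 measured 36.4 and 38.0 CPM in control somata and 43.2 and 51.0 CPM after PTX, a log2 change of 0.34 whose adjusted p was 0.207 without and 0.0122 with the block. AABR07072236.1 measured 22.4 and 21.0 CPM against 14.3 and 15.9 CPM, a log2 change of -0.52 whose adjusted p was 0.149 without and 0.00404 with the block. The groups did not overlap for either gene. AABR07066820.1, a somata-enriched lincRNA, also had its somatic value of -0.65 called only with the block (adjusted p = 0.0286, against 0.221).

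Other measures moved with PTX in these libraries. Of the 12 activity genes listed, 8 rose in somata and 7 in processes. The 3 inhibitory neuron markers summed to 203 to 278 CPM in control and 367 to 470 CPM in PTX somata (2 of 3 raised), and to 124 to 156 and 203 to 266 CPM in processes (1 of 3 raised). The 4 markers of dividing cells summed to 83.1 to 91.2 CPM in control and 109 to 145 CPM in PTX somata (1 of 4 raised), and to 124 to 145 and 241 to 245 CPM in processes (3 of 4 raised). The sums of the neuronal and astrocyte markers moved lower after PTX. The 5 neuronal markers summed to 1579 to 1786 CPM in control and 1380 to 1534 CPM in PTX somata, where Rbfox3 fell (log2 fold change -0.67, adjusted p = 0.0221). In processes they summed to 4959 to 5212 CPM in controls and 3709 to 4353 CPM after PTX, with none of the 5 called. The 7 astrocyte markers summed to 3486 to 3937 and 2623 to 3647 CPM in somata, where Gja1 fell (-0.61, adjusted p = 0.0215), and to 12480 to 13950 and 10540 to 11830 CPM in processes, with none of the 7 called. Slc1a3 went the other way, without a call, in somata (0.13) and in processes (0.40), as did Sox9 in processes (0.06). The groups overlapped for astrocytes in somata and did not for the other sums given. None of these markers was at 0 in all libraries. Their part in the lincRNA changes was not tested.

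The second question was how lincRNAs were distributed between the compartments. In control cultures 57 of 251 lincRNAs (22.7%) differed between processes and somata with an adjusted p under 0.05 and a log2 fold change beyond 1 in size, against 19.2% of all tested genes. Of these, 18 (7.17%) were higher in processes and 39 (15.5%) higher in somata, whereas among all tested genes 11.6% were higher in processes and 7.58% in somata. The median log2 fold change, processes against somata, was -0.28 for the lincRNAs and -0.05 for all tested genes, and 62.9% of the lincRNAs had a negative value, against 52.9%. With upper quartile scaling the split was 13 higher in processes and 49 higher in somata, against 8.48% and 12.7% of all tested genes. With library sizes alone it was 2 and 220, against 0.342% and 84.3%. A scaling shifts all genes of a comparison nearly alike, and the median of all genes moved to -0.25 and -1.86. The filter changed the place of the lincRNAs among the genes, their median less that of all genes being -0.23 as reported, -0.14 with a mean of more than 20 reads and 0.10 with at least 10 reads in every library. Directions between compartments are therefore relative to the other genes in the library.

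PTX-treated cultures gave a similar picture. There 59 lincRNAs (23.5%, against 21% of all tested genes) were called, 20 (7.97%) higher in processes and 39 (15.5%) higher in somata, with 11.4% and 9.67% as the background. The median was -0.24 for the lincRNAs and -0.05 for all genes. Upper quartile scaling gave 12 and 50, against 8.73% and 14.2% of all tested genes, and library sizes alone 0 and 221, against 0.356% and 84.9%. Without PTX replicate 2 of the processes, 39 were called and 23 of them were higher in somata. The 2 comparisons use separate libraries. Called in both were 13 lincRNAs on the process side, out of 18 and 20, and 22 on the somatic side, out of 39 and 39, and none was called in opposite directions. All 57 called in control cultures had the same sign in PTX cultures, and 58 of 59 in reverse. For these overlaps no share over all tested genes was computed, so they do not set lincRNAs apart from other genes. Across the 251 the log2 fold changes of control and PTX cultures had a Spearman correlation of 0.851, against 0.902 over all tested genes.

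The lean to somata varied with the read level. Below 2 CPM, 2.42% of 124 lincRNAs were called higher in processes and 16.9% higher in somata in control cultures, much like the 3.32% and 16.3% of all genes at that level. Between 2 and 5 CPM the lincRNAs gave 11.8% and 16.2%, against 7.84% and 13.5%. Over 5 CPM they gave 11.9% in each direction, against 13.9% and 4.7%, 7 genes on either side. The medians of the lincRNAs were -0.54, -0.16 and 0.14 in these 3 classes, and those of all genes -0.56, -0.25 and 0.06. Hence the lower median of the lincRNAs over all levels was not seen within any of the 3 classes. In PTX cultures the calls split otherwise. Over 5 CPM, 8.47% of the lincRNAs were higher in processes and 13.6% higher in somata, against 13.7% and 5.93% of all genes. Between 2 and 5 CPM they gave 14.7% and 10.3%, against 7.28% and 15.9%, and below 2 CPM 4.03% and 19.4%, against 3.54% and 22.9%. Of the 39 lincRNAs called higher in somata in control cultures, 28 had no process library with more than 20 reads and thus had entered the test through their somatic reads. Among the 137 lincRNAs with at least 10 reads in every library, 13 were called in each direction in control cultures, with a median of 0.06. Together these were 19% of the 137, against 18.1% of all genes under that filter. Of all genes 11.7% were higher in processes and 6.42% higher in somata, with a median of -0.04. The filter itself leaves out lincRNAs with few process reads, so the even split depends in part on it.

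**Figure D4:**
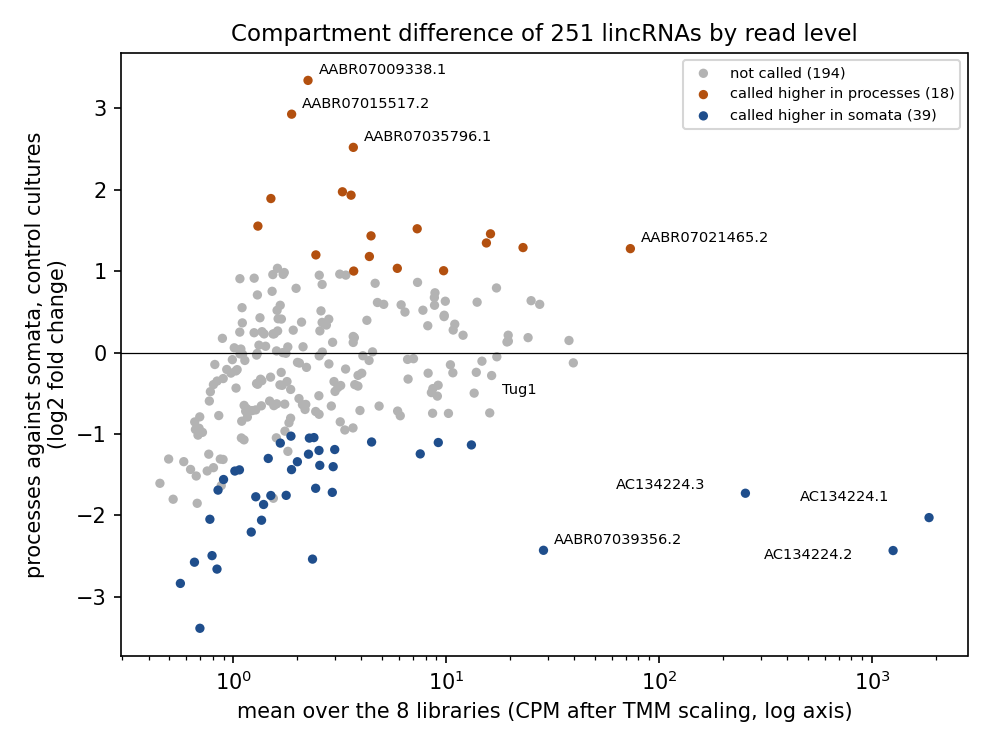
Processes against somata log2 fold change in control cultures (vertical) of the 251 lincRNAs against their mean level over the 8 libraries (CPM, logarithmic axis). The 18 lincRNAs called higher in processes (orange) and the 39 called higher in somata (blue) are marked, and low-level genes lean to the somatic side.

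Among the lincRNAs with a mean of at least 1 CPM, the largest process enrichment was that of AABR07009338.1. It measured 0.553 and 0.353 CPM in control somata and 5.13 and 4.11 CPM in control processes, a log2 difference of 3.34 (standard error 0.36, adjusted p = 2.99e-05). AABR07015517.2 followed with 0.510 and 0.548 CPM in somata and 3.01 and 5.17 CPM in processes, a log2 difference of 2.93 (standard error 0.41, adjusted p = 0.000199). For both genes the somatic libraries held at most 18 reads, so that the size of the fold rests on few reads. These were the 2 of the 18 process-enriched lincRNAs with no somatic library above 20 reads, and they had thus entered the test through their process reads. The next 4 were AABR07035796.1 with 2.52, AABR07044415.1 with 1.97, AABR07035802.1 with 1.93 and LOC100912611 with 1.89. These same 6 genes had the largest process enrichment in PTX cultures, from 1.55 for LOC100912611 to 2.79 for AABR07035796.1. The call of LOC100912611 was lost without replicate 1 of control somata (adjusted p = 0.0512) and, in PTX cultures, without replicate 1 of PTX somata (0.0616). That of AABR07015517.2 in PTX cultures was lost without PTX replicate 2 of the processes (0.0999).

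AABR07021465.2 was the process-enriched lincRNA with the most reads. It measured 41.3 and 46.6 CPM in control somata and 107 and 106 CPM in control processes, a log2 difference of 1.28 (standard error 0.12, adjusted p = 1.02e-05). After PTX it stood at 40.9 and 46.6 CPM in somata and at 104 and 93.7 CPM in processes, so that the compartments were apart in both conditions and PTX and control libraries overlapped within somata. With library sizes alone the sign of its value turned, to -0.53 in control and -0.65 in PTX cultures, as did that of AABR07015517.2, AABR07044415.1 and LOC100912611 in PTX cultures. That scaling moved the median of all genes to -1.86 and -1.87, and all 4 genes stayed above it.

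The long non-coding RNA LOC102549726, with 9.69 and 8.23 CPM in control somata and 23.4 and 22.1 CPM in control processes, was likewise on the process side, at 1.35 on the log2 scale (standard error 0.15, adjusted p = 4.5e-05). Its nearest tested protein-coding RefSeq neighbours were Hspa1a, which encodes an inducible heat shock protein, and Neu1, which encodes a lysosomal sialidase. Between them and LOC102549726 lay 1 and 2 other RefSeq genes, and their mean levels were low (1.68 and 4.4 CPM). Hspa1a was called on the other side, with a log2 fold change of -1.33 (adjusted p = 0.0151). Neu1 had a negative value within the fold limit, -0.81 (adjusted p = 0.0305), and was not called. LOC688442, protein coding in RefSeq, was also called, just past the fold limit (adjusted p = 0.00817).

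On the somatic side the contig AC134224 stood out by its reads. AC134224.1 measured 3470.2 and 2681 CPM in control somata and 768 and 741 CPM in control processes, a log2 difference of -2.03 (standard error 0.16, adjusted p = 3.17e-06). AC134224.2 measured 2236 and 2024 CPM against 389 and 400 CPM, or -2.43 (standard error 0.13, adjusted p = 6.73e-07). AC134224.3 measured 460 and 361 CPM against 123 and 124 CPM, or -1.73 (standard error 0.14, adjusted p = 4.83e-06). All 3 kept this order of compartments in PTX cultures, with -2.08, -2.53 and -1.94. PTX itself gave no call for them in either compartment, with log2 fold changes from -0.31 to 0.00. Genes of 1 contig may share reads, so the 3 are not independent of each other.

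The other lincRNAs of the somatic side had far fewer reads. AABR07066820.1 measured 4.42 and 4.94 CPM in control somata and 0.892 and 0.705 CPM in control processes, a log2 difference of -2.54 (standard error 0.36, adjusted p = 0.000226). Of these libraries only the somatic ones passed the filter of 20 reads, so the size of the fold rests on few process reads. AABR07039356.2 measured 66.7 and 31.9 CPM in control somata and 9.70 and 8.57 CPM in control processes, or -2.43 (standard error 0.38, adjusted p = 0.000407). Its replicate 1 was again the higher one in PTX somata, at 58.5 and 35.1 CPM, and in processes, at 11.3 and 7.34 CPM after PTX. The summed markers of fibroblasts and vessels were also higher in replicate 1 of every group, from 33.3 to 49.0 CPM against 15.2 to 23.3 CPM in replicate 2, with Cldn5 at 0, and their part in this was not tested. AABR07005593.1 with -2.20 and AABR07006724.1 with -2.06 had at most 6 reads in any process library and had thus entered the test through their somatic reads. The call of AABR07005593.1 was lost without control somata replicate 1 (adjusted p = 0.0557) or control processes replicate 2 (0.0797), and in PTX cultures without PTX processes replicate 2 (0.0938).

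The contig AABR07070161 carried 3 lincRNAs with most of their reads in somata. AABR07070161.4 had 47 and 38 reads in control somata, 5 and 6 in control processes, 28 and 44 in PTX somata and 1 and 4 in PTX processes. AABR07070161.1 had 30 and 41, 2 and 4, 34 and 31, and 0 and 1 reads in the same order. Both were called in both kinds of culture, whereas AABR07070161.3, with 25 and 21 against 4 and 2 reads in control cultures, was not (adjusted p = 0.148). AABR07070161.4 and AABR07070161.1 had entered the test through their somatic reads only, so their lean to somata depends in part on the filter. In control cultures the call of AABR07070161.4 was lost with DESeq2 and without control somata replicate 1 or either control process library (adjusted p between 0.108 and 0.171). In PTX cultures it was lost without PTX processes replicate 1 (0.0681). That of AABR07070161.1 was lost without control processes replicate 1 (0.0796).

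AABR07052897.2, the contig neighbour of the strongest PTX-induced lincRNA, was higher in control somata, with the 98 and 97 reads given above, than in control processes, with 4 and 17. Its log2 fold change was -1.72 (standard error 0.48, adjusted p = 0.0126), and without control processes replicate 1 it was -0.99 with an adjusted p of 0.102. AABR07052897.3 itself showed no call in control cultures (0.18, adjusted p = 0.698) and a value of 0.69 in PTX cultures (adjusted p = 0.0241), below the fold limit. AABR07059159.1 and AABR07027407.1, raised by PTX in somata, were higher in somata in PTX cultures, with -1.27 (adjusted p = 0.000789) and -1.26 (adjusted p = 0.000411). In control cultures their values were -0.49 and -0.75, within the fold limit, and both calls in PTX cultures fell below it without PTX processes replicate 2, at -0.94 and -0.98.

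**Figure D5:**
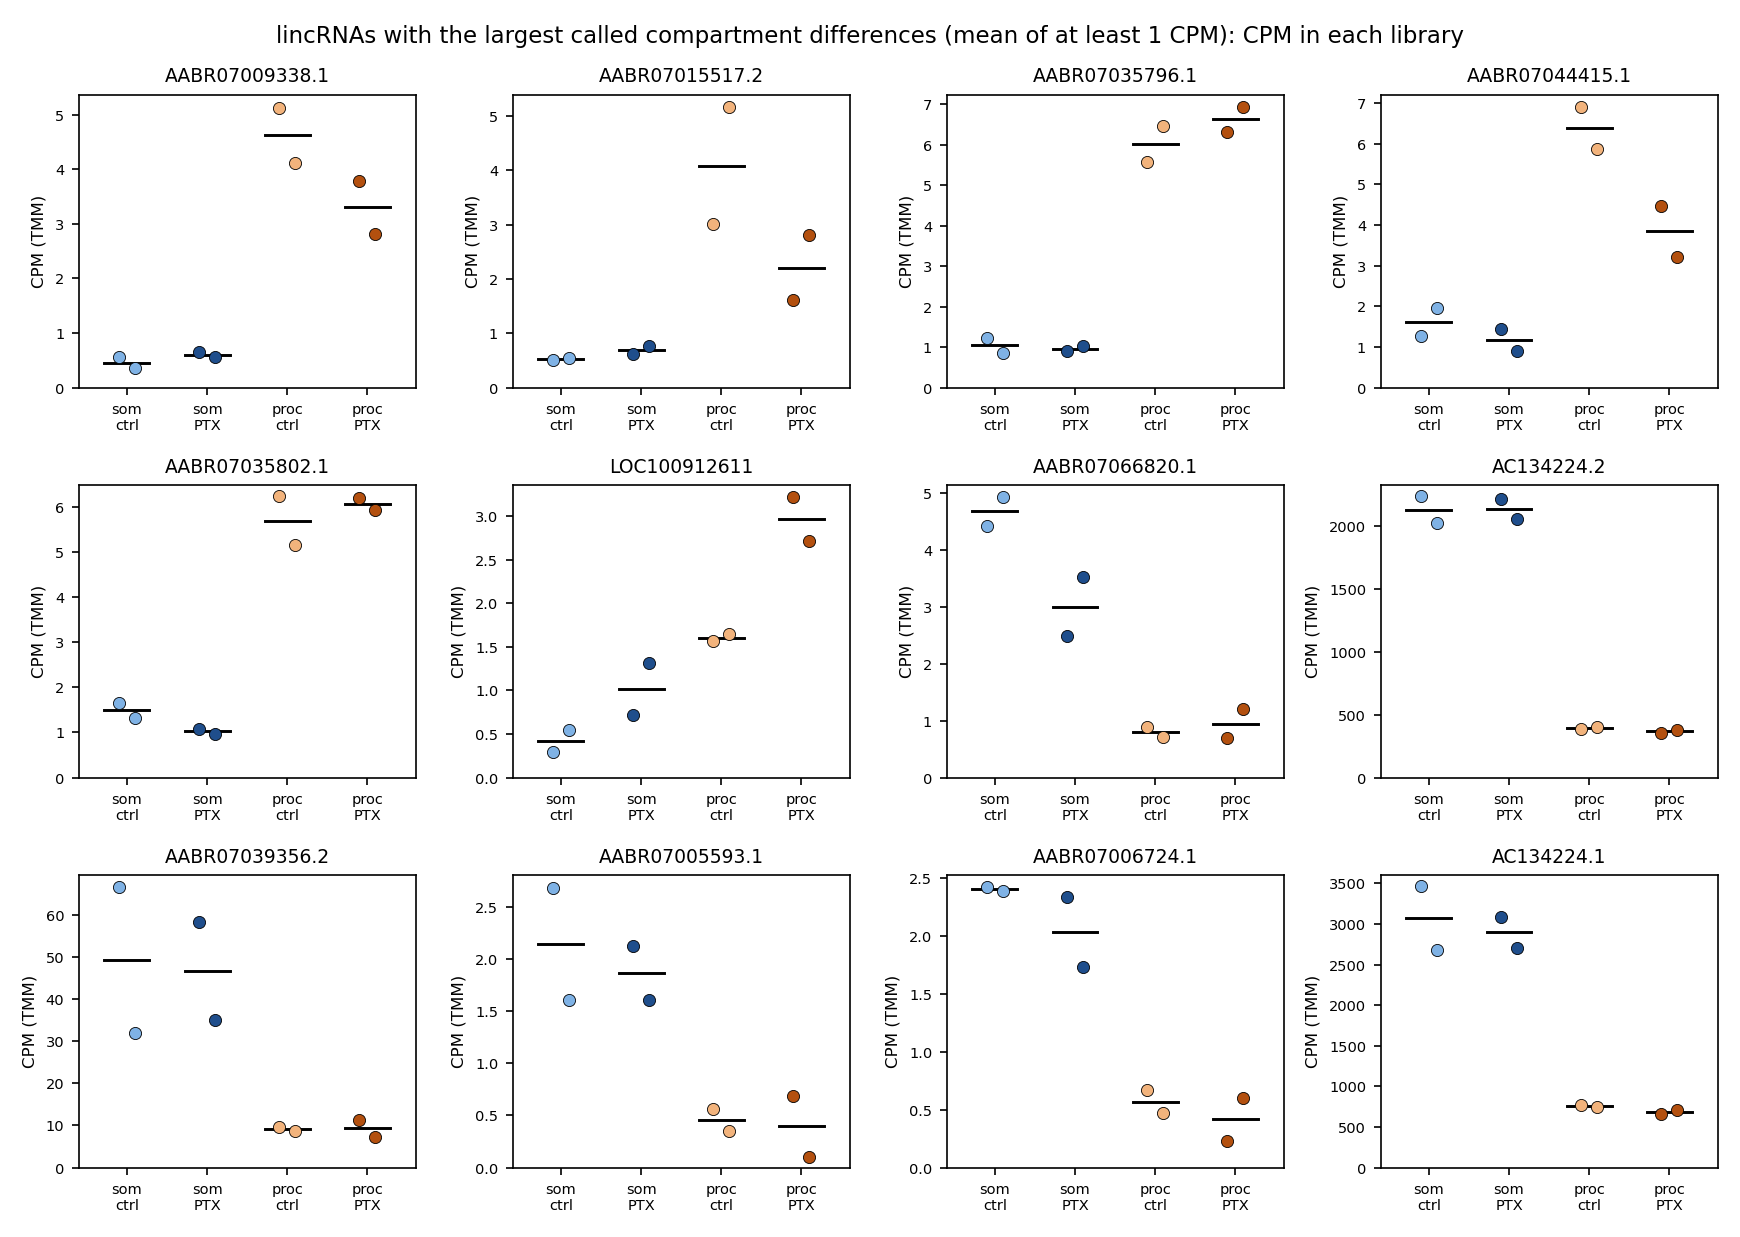
Level in CPM after TMM scaling (vertical axes start at 0 and differ in range) of the 6 lincRNAs with the largest called difference in either direction in control cultures, among those with a mean of at least 1 CPM, in each library (som, somata; proc, processes; ctrl, control). Points are libraries and bars are the means of 2; the first 6 genes are higher in both pairs of process libraries and the last 6 in both pairs of somatic libraries.

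Tug1 was the only member on the lists of well-known lncRNAs. It is a broadly expressed lncRNA known for roles in the retina and in gene silencing. It measured 19.8 and 18.4 CPM in control somata, 16.4 and 16.6 CPM in PTX somata, 14.8 and 16.6 CPM in control processes and 15.0 and 13.2 CPM in PTX processes. Both control somatic libraries were the highest, but no comparison passed, with -0.21 (adjusted p = 0.486) for PTX in somata, -0.16 (0.661) for PTX in processes and -0.28 (0.103) for processes against somata in control cultures. Kantr, a lncRNA transcribed next to the histone demethylase gene Kdm5c, had 51 and 33 reads in control somata and 4 and 7 in control processes. Its log2 fold change of -1.44 was called (standard error 0.48, adjusted p = 0.0298), as was -1.56 in PTX cultures (adjusted p = 0.0254). Of the control libraries only the somatic ones passed the filter of 20 reads, so the size of the fold rests on few process reads. The nearest tested protein-coding RefSeq neighbours of Kantr, Kdm5c and Tspyl2, did not differ by as much, at -0.08 each in control cultures. Rfwd3, a ubiquitin ligase gene that RefSeq lists as protein coding, overlapped between all groups, from 2.30 to 5.03 CPM.

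Small nuclear RNAs were measured alongside. The 5 families of small nuclear RNAs listed summed to 1387 to 1754 CPM in somata and 69.9 to 125 CPM in processes, and 3 of 5, RF00003, RF00004 and RF00015, were called higher in somata in either kind of culture. RF00020 (-0.84 in control and -0.88 in PTX cultures) and RF00026 (-0.74 and -0.50) were not called. None was at 0 in all libraries. The part of nuclear RNA in the compartment differences of the lincRNAs was not tested. Among other non-coding classes of control cultures, 57 of 190 processed pseudogenes were called higher in processes and 6 higher in somata, and of 51 processed transcripts 6 and 5. Of 199 pseudogenes 40 and 9 were called, and of 10 antisense genes 0 and 1. Among all tested genes the shares were 11.6% and 7.58%.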

How the data were processed

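Counts per gene of ribosome-depleted RNA from 8 libraries in 4 groups of 2 were analysed. Per the labels, libraries were made with a directional kit. The deposited values are raw read counts; the authors trimmed reads, mapped them to Rnor 6.0 with Subread per their methods (the submitters' processing notes name STAR), counted with featureCounts and summed counts per symbol. The expression tables deposited by the authors also hold their fold changes, p-values and log2 CPM, which were not used; only the biotype text was. Which strand setting was used is not given in the sources used here. Members and lists were chosen with earlier results of these data known.

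Every gene whose count exceeded 20 reads in 2 or more libraries was fitted (edgeR 4.0.16, R 4.3.3) with TMM factors and 4 group means over the 8 libraries, and contrasts were tested by quasi-likelihood with Benjamini-Hochberg adjustment over 14309 genes. PTX and interaction calls had an adjusted p under 0.05; compartment calls also a log2 fold change beyond 1 in size. Standard errors follow from the fold change and the F statistic. The code was tested on simulated counts. Named were members on lists of known lncRNAs, the 10 with the highest mean CPM, per comparison up to 6 called, non-overlapping members per direction with a mean of at least 1 CPM, the 3 with the lowest interaction p, and members on the contigs of called ones; the members with ordinary or RefSeq-matched symbols and those marked in the text were added after values were seen. With 2 libraries per group an exact permutation test of 1 gene cannot go below 0.333, so none was run.

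Same-numbered libraries deviated together: differences between replicate 2 and 1 correlated between groups with r from 0.274 to 0.54 over all tested genes and 0.103 to 0.326 over the lincRNAs. The labels give the numbers, but no source used here says what they mark. The block lowered the biological coefficient of variation from 11.5% to 6.77%. As alternatives, DESeq2 1.42.0, the likelihood ratio test, other scalings, filters and thresholds, fewer libraries and the replicate block were run.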

Additional observations from a re-analysis of the deposited data

Results flagged for a closer look

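Among the lincRNAs chosen for naming, 2 were flagged. Both PTX libraries lay above both controls in 1 compartment and below both in the other. How often this occurs among all lincRNAs or all tested genes was not computed, so the pattern does not set these 2 apart. AABR07015517.2 measured 0.510 and 0.548 CPM in control and 0.611 and 0.762 CPM in PTX somata, but 3.01 and 5.17 CPM in control and 1.61 and 2.82 CPM in PTX processes, and its interaction term was -1.23 on the log2 scale. AABR07003304.1 measured 0.978 and 1.14 CPM in control and 0.791 and 0.847 CPM in PTX somata, but 0.223 and 0.117 CPM in control and 0.459 and 0.704 CPM in PTX processes, with an interaction term of 2.10. In processes the latter rests on 2 and 1 reads against 4 and 7. By the interaction test over all genes (edgeR quasi-likelihood) neither passed, and the adjusted p of every lincRNA was at least 0.999993. Groups of 2 libraries are too small for a check of single outlying libraries.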

How the results depend on the processing

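The PTX calls of AABR07052897.3 and AABR07007055.1 held under every alternative run. Of 839 alternative values, for 48 gene results and the lowest replicate correlation, 786 counted as unchanged, 48 lost the call and 5 changed direction. Unchanged meant staying on its side of the threshold, and the correlation, which has none, was counted there. Calls over all genes moved too. For PTX in somata 14% of all genes were called with the replicate block and 5.04% with no filter. For PTX in processes 6.63% were called with the likelihood ratio test, 11.2% with the block, 4.98% with no filter and 2.08% with only 4 libraries. PTX in somata (5 lincRNAs called) gave 18 with the replicate block, 10 with no filter and 2 at an adjusted p under 0.01, and 2 to 5 when single libraries were left out (2 without control replicate 1, control replicate 2 or PTX replicate 1, 3 without PTX replicate 2). PTX in processes (4 called) gave 10 with the likelihood ratio test, 11 with the replicate block, 11 with no filter, 2 with only the 4 libraries compared, 2 at an adjusted p under 0.01, and 2 to 5 without single libraries (2 without control replicate 1 or PTX replicate 1). The interaction gave 0 throughout, and could not be fitted with only 4 libraries.

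Processes against somata in control cultures (57 called, 18 higher in processes and 39 in somata) gave 222, 2 and 220 with library sizes alone. With at least 10 reads in every library 26 were called and 13 were higher in somata, against 18.1% and 6.42% of all genes under that filter. At an adjusted p under 0.01, 23 were higher in somata, and without the fold limit 34 were higher in processes. Leaving out single libraries gave 42 to 59, 16 to 19 and 26 to 41. In PTX cultures (59, 20 and 39) library sizes alone gave 221, 0 and 221, at least 10 reads in every library gave 26 called and 12 higher in somata, an adjusted p under 0.01 gave 37 and 21, no fold limit gave 91 called and 39 higher in processes, upper quartile scaling gave 12 higher in processes, and leaving out single libraries gave 39 to 59, 16 to 20 and 23 to 39. With library sizes alone AABR07021465.2 reversed to -0.53 (control) and -0.65 (PTX), and in PTX cultures AABR07015517.2 to -0.11, AABR07044415.1 to -0.13 and LOC100912611 to -0.27, where the median of all genes is -1.87. For the other shifts the cause was not tested. In PTX cultures 19.3% of all genes were called with at least 10 reads in every library, 7.7% as higher in somata. Shares over all genes were not computed for an adjusted p under 0.01 or without the fold limit. The replicate block moved no compartment count of calls by more than 1.5 times, with 68 and 63 called (20.5% and 21.9% of all tested genes). The depth of the process libraries, with a median of 17 reads per lincRNA, limits the process values of the lincRNAs with few reads. More than 20 reads in all 4 process libraries were seen for 89.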
